A study of Mus musculus with 7 samples.

Results

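Somatostatin-expressing (SST) interneurons are inhibitory cortical neurons, many of which contact the distal dendrites of pyramidal cells. Candidate enhancers, called gene regulatory elements (GREs), were screened for activity in these cells by the paralleled enhancer single cell assay (PESCA), in which each element sits upstream of a minimal human beta-globin promoter in an AAV9 vector and is read out in single nuclei through barcodes in the GFP transcript that it drives. The 46 GREs described here, of 287 in the library, were selected on their own chromatin reads and had at least 5 ATAC-Seq reads in each of the 2 SST replicates. ATAC-Seq was carried out on nuclei from the whole cortex of uninjected F1 mice of 6 to 12 weeks, which carried the Cre-dependent nuclear tag SUN1-2xsfGFP-6xMYC together with Sst-IRES-Cre, Vip-IRES-Cre or Pv-Cre. There were 2 replicates per driver, and each Cre line marks the cells that have used that driver, which need not be one uniform type. Viral transcripts were measured in 1 sample of nuclei from the primary visual cortex (V1) of C57BL/6J mice of 6 to 10 weeks, injected with the library and processed as 10 libraries. By the study's methods these came from 2 animals, 5 libraries each, so the libraries are not independent animals, and the labels do not say which library came from which animal. The labels give all animals as male, whereas the protocol text names both sexes for the ATAC-Seq crosses.

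Open chromatin marks places where nucleosomes have been displaced and regulatory proteins can bind, and distal open sites that differ between cell classes are the usual source of candidate enhancers. Whether such a site drives transcription outside its locus is a separate property, which a reporter assay measures. An interneuron enhancer placed in a virus is useful as a tool when it is active in one class and quiet in the neighbouring ones, here PV interneurons (fast-spiking basket and chandelier cells), VIP interneurons (which mainly inhibit other interneurons) and excitatory neurons. In the vector each GRE was cloned with flanking genomic sequence and paired with 3 barcodes.

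Because the library itself had been chosen by the study on SST signal over PV and VIP signal, and the 46 members on SST reads, every contrast of SST chromatin with PV or VIP is given as reads and without a test. The viral nuclei form 1 sample, so their values carry counting intervals and no p-value. These intervals treat every UMI as independent and cover counting error only. They leave out the clustering of UMIs in single nuclei and the spread between animals, so they can be too narrow.

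Sequences from GREs of the main results are given from the GRCm38 reference genome. They are the plus strand of the central 300 bases of each GRE or, for GRE222, 30 bases on the strand of Sst. The cloned elements that gave the SST folds were longer, since they held the whole GRE and flanking sequence. Capitals mark matches to any of the short motifs listed at the end of the results. GRE163 (chr12:65491093-65491392), GRE83 (chr6:9842484-9842783) and GRE91 (chr13:57459721-57460020) are shown because they had the highest SST folds among the members. GRE65 (chr4:50006928-50007227) is shown for the SST expression of its nearest gene, GRE220 (chr5:52812449-52812748) for its level in PV nuclei and GRE262 (chr11:111818145-111818444) for the most SST chromatin reads. GRE222 (chr16:23890874-23890903) is the member at the start of the Sst gene itself, and the stretch holds the cAMP response element for which that promoter is known.
GRE163: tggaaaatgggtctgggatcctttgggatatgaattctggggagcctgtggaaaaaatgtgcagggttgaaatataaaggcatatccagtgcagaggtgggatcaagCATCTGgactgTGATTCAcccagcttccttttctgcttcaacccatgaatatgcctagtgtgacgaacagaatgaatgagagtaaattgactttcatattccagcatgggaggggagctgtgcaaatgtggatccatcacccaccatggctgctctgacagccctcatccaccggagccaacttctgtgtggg
GRE83: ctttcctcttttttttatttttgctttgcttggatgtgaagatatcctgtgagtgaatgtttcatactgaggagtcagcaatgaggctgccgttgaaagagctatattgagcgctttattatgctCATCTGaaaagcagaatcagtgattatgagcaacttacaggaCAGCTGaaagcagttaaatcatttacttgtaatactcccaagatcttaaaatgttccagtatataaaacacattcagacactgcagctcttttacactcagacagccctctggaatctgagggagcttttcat
GRE91: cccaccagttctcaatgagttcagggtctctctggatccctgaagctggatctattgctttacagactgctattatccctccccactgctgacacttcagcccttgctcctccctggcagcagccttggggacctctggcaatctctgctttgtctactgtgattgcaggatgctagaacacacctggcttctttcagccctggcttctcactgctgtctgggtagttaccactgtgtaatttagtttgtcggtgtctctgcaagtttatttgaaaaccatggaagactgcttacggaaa
GRE65: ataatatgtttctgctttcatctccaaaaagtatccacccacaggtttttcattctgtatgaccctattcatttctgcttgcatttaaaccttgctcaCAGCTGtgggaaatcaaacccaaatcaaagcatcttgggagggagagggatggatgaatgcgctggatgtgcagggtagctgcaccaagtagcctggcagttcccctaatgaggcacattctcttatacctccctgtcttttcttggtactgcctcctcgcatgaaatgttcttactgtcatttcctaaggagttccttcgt
GRE220: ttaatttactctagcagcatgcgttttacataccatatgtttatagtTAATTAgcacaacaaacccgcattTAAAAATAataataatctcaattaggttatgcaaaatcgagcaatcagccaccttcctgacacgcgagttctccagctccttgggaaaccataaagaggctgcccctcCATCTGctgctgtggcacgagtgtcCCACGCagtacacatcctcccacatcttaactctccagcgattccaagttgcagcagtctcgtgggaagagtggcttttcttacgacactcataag
GRE262: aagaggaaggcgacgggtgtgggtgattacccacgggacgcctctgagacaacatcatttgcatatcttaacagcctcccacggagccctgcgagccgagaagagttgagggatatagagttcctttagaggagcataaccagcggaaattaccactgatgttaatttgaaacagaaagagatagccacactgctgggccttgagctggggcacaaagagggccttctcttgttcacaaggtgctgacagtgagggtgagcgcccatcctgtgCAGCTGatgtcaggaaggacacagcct
GRE222: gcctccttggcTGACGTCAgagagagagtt

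The 6 ATAC-Seq samples held between 1801883 and 2256073 reads on the reference regions. Summed over the 46 members, the SST replicates gave 687 and 880 of these reads, PV gave 77 and 60, and VIP gave 33 and 55. Both SST replicates were thus far above the other 4 samples, which is the difference by which the GREs had been chosen. A member had a median of 10 reads in SST replicate 1 and 14 in SST replicate 2, 1 in each PV replicate, and 0 and 0.5 in the VIP replicates. The range in the SST replicates was 5 to 115 and 5 to 122 reads.

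The rule asked for reads in both SST replicates, so the following counts describe what it selected. The other 241 GREs together had 341 reads in SST replicate 1 and 1566 in SST replicate 2, although the totals of the libraries were similar, 1905068 and 2256073. Replicate 1 was the replicate that kept most GREs out: 138 GREs fell short in replicate 1 alone, 6 in replicate 2 alone and 97 in both. In 198 of the 241, replicate 2 had at least 2 times as many reads as replicate 1, against 9 of the 46 members. Just inside the threshold, GRE177 had 5 and 5 reads, GRE119 and GRE120 each had 5 and 7, GRE172 had 11 and 5, and GRE60 had 10 and 5. Just outside it, GRE224 and GRE221 had 4 and 5 reads, GRE31 had 5 and 4 and GRE111 had 4 and 18.

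GRE262 had the most SST reads of all members, 115 and 122 in the SST replicates. For PV it had 22 and 13 reads and for VIP 2 and 9, so both SST values were above all 4 others. GRE267, in an intron of Btbd3, had 39 and 40 SST reads, 5 and 6 PV reads and 2 and 2 VIP reads. GRE265, in an intron of the teneurin gene Tenm2, had 28 and 47 SST reads, 3 and 5 PV reads and 3 and 3 VIP reads. SST stood above PV and VIP in every replicate of these 3 GREs, an order that the choice of library and members favoured.

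GRE163 had 20 and 54 SST reads with 1 and 5 in PV and 1 and 4 in VIP. GRE258, an intergenic GRE whose nearest promoter is that of the netrin receptor gene Dcc, had 36 and 32 SST reads, 5 and 1 PV reads and 3 and 4 VIP reads. At GRE222, over the first exon of Sst, the SST replicates had 33 and 32 reads, the PV replicates 2 and 2 and the VIP replicates 4 and 4. In these GREs too no PV or VIP replicate reached the lower SST value, which the same choice favoured.

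PV and VIP reads were few. In the VIP replicates 28 and 23 of the 46 members had no read. Over all 4 PV and VIP samples together, 3 members (GRE1, GRE4 and GRE10) had no read, against 180 of the other 241 GREs. The median over PV and VIP together was 3 reads per member and the highest value was 46, at GRE262. The 3 members with the most PV and VIP reads, GRE262, GRE267 and GRE265, are also the 3 with the most SST reads. The library had been chosen by the study on SST over PV and VIP signal and the members on SST reads, so no test of these counts was made.

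Peaks that the authors called in single replicates rest on the same SST reads that chose the members, and their counts are given as a description. Of the 46 members, 33 overlapped a peak of SST replicate 1 and 40 a peak of SST replicate 2, 31 overlapped one in both and 4 in neither. Of the other 241 GREs, 7 overlapped a peak of replicate 1 and 112 one of replicate 2. The highest peak values at a member, as −log10 of the q-value, were 94.7 and 99.7 at GRE262. Peaks of PV or VIP samples lay over 5 members, GRE163, GRE258, GRE262, GRE265 and GRE271. At GRE262 they were called in both PV replicates and in VIP replicate 2, at 22.4, 8.38 and 5.58.

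The difference between PV and VIP was not itself a criterion of either choice. It was tested with edgeR's quasi-likelihood test across all reference regions. The study's ranking did use PV and VIP reads, averaged in its denominator, and so favoured GREs with few of them. This limits in advance the difference that a member can show, so for the members the test is not independent of the choice. Of 40338 regions that passed the filter on low reads, 49.1% were called at an adjusted p under 0.05. Of the 46 members, 21 passed the filter and 1 was called, GRE262, which was higher in PV. None of the other 241 GREs passed. Apart from GRE262, the members that passed did so through their SST reads. The share called among the members therefore says little beside the background share.

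GRE262 had 11.2 and 7.21 CPM (reads scaled to the library total) in PV and 0.993 and 4.02 in VIP. The log2 difference of PV minus VIP was 1.85 ± 0.52 (SE, n = 2 per group; edgeR adjusted p = 0.00778). The PV and VIP values did not overlap. The call was lost without PV replicate 1 and without VIP replicate 1, and with no filter on low reads. GRE171, in introns of Dock2 and Fam196b, had 4 and 0 PV reads and no VIP reads. Most members had no more than 3 reads in these 4 samples, 26 of 46.

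In the genome the members were spread over 17 chromosomes, and no pair lay closer than 162320 bases. By the GENCODE M21 annotation of GRCm38, 29 were intergenic, 10 lay in introns of protein-coding genes and 7 overlapped an exon, all 7 also a coding part. Of the other 241 GREs, 153 were intergenic, 66 intronic and 22 exonic. The rule took reads per region without a correction for width, which favours wider regions. The members were 301 to 878 bases wide with a median of 430.5, against 301 for the others. Their median GC content was 47.3% against 40.5%, and their median phyloP conservation score was 0.694 against 0.726. All GREs had been filtered by the authors on that score. The closest coding gene began a median of 110664 bases away, and 2 members, GRE222 and GRE1, lay within 2000 bases of one. GRE222 covers chromosome 16 from 23890468 to 23890956, and its end is 2 bases inside the GENCODE start of Sst at 23890958. RefSeq places the start at 23890844, which puts the cAMP response element printed above 48 bases upstream of it in the RefSeq model and within the first exon in the GENCODE model.

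In the virus screen, 32335 of 47348 cell barcodes had more than 200 UMIs outside the viral barcodes. By marker gates, 746 of them were SST nuclei, 437 PV, 397 VIP, 330 NPY, 4879 excitatory, 1776 astrocyte, 1387 oligodendrocyte, 218 OPC, 232 microglia and 399 vascular, and 21231 passed no gate. The SST, VIP and excitatory names were checked on genes that the gates had not used, and the other names rest on the gates alone. Elfn1 and Grik1, expressed in SST interneurons, stood at 3.75 and 3.72 UMIs per 10000 in the SST nuclei and at 0.0349 and 1.68 in the PV nuclei, and Elfn1 also at 2.49 in the VIP nuclei. Prox1, a marker of VIP and related interneurons, stood at 3.37 in the VIP nuclei, 0.0269 in the SST nuclei and 2.02 in oligodendrocytes. Neurod6, of excitatory neurons, stood at 1.42 in the excitatory nuclei, 0.881 in astrocytes and 1.12 in the nuclei of no gate. Of 34958 distinct cell barcode sequences, 9663 occurred in more than 1 library. Doublets were treated only by leaving out the 303 nuclei that passed several gates. The SST gate asks for at least 3 Sst UMIs, and 91 of its nuclei had exactly 3, while 190 nuclei outside had 2.

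Activity was expressed as UMIs of the 3 barcodes per nucleus, and the SST fold as the mean in SST nuclei over the mean in the 10055 nuclei of the other gated types, each mean raised by 0.01. The 46 members gave 102506 of the 503357 GRE UMIs in kept nuclei. An SST nucleus held 9.53 member UMIs on average, a PV nucleus 7.47, a VIP nucleus 3.23, an NPY nucleus 4.01 and an excitatory nucleus 3.64. Astrocytes held 1.79, oligodendrocytes 1.30, OPCs 1.09, microglia 1.19 and vascular cells 0.742. Median cellular UMIs were 855 in SST, 1229 in PV, 621 in VIP and 1020 in excitatory nuclei. Per 1000 cellular UMIs the SST nuclei were still highest, at 9.56, followed by PV at 5.70 and VIP at 4.31, and vascular cells lowest at 0.536.

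The summed member UMIs per nucleus were 3.26 times higher in SST nuclei than in the other gated nuclei, and those of the other 241 GREs 3.34 times. This sum weights abundant GREs most, GRE126 alone giving 15567 of the 102506 member UMIs, and the difference was not tested. Over the 10 libraries the member ratio ranged from 1.64 to 4.82 with an SD of 1.02, and it was above the ratio of the other GREs in 5 of the 10. The members' share of all GRE UMIs was 20.1% in SST nuclei (95% exact binomial interval 19.6 to 20.5), 19.8% in PV (19.2 to 20.5), 20.0% in VIP (19.1 to 21.0) and 20.6% in excitatory nuclei (20.3 to 20.8). The lowest share was in vascular cells, 18.5%, and the highest in OPCs, 23.7%, where 999 GRE UMIs set the precision. Over single libraries the share ran more widely than these intervals. It was 14.5 to 23.6% in SST, 13.7 to 31.6% in PV, 10.0 to 29.8% in VIP and 18.2 to 22.2% in excitatory nuclei. The split into members and others is by reads in both SST replicates and not by total SST signal, since the members had 10 to 237 SST reads over both replicates and the others 3 to 29.

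Taken singly, 44 of the 46 members had an SST fold above 1, and 34 had an interval wholly above 1. Over all 287 GREs these were 270 and 193, or 94.1% and 67.2%, against 95.7% and 73.9% of the members. The median SST fold was 2.40, against 2.12 over all 287 GREs, and 27 members lay above that median of all GREs. No test of this difference was made. The quartiles of the members were 1.47 and 3.23, and the full range was 0.878 to 9.13. The fold was above 4 in 8 members and in 28 of all 287 GREs. Total UMIs per member ran from 27 to 15567 with a median of 1141, and 31 members had at least 300. The median total of the other 241 GREs was lower, at 717. The abundance of each construct in the injected virus was not analysed here, so a low total does not separate a weak element from a rare one. Because of the added 0.01, the fold of a GRE with few UMIs is pulled towards 1, and across the 46 members the fold rose with the total (Spearman's rho = 0.601, n = 46 GREs measured in the same nuclei). Over all 287 GREs this rho was 0.709. The part of total UMIs in the difference between the median folds was not tested.

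Over the 46 members, whose SST reads the rule had cut from below, Spearman's rho between SST reads and SST fold was 0.260 and Pearson's r on log2 values was 0.187. Over all 287 GREs these were 0.193 and 0.208. Between SST reads and total UMIs they were 0.168 and 0.0201 over the members. The GREs share nuclei and libraries in these values, and both are descriptions.

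GRE163 had the highest SST fold of the members at the settings used here. It lies on chromosome 12 from 65490942 to 65491543, 265425 bases from the nearest coding start, that of Wdr20rt. The SST nuclei gave 142 UMIs, or 0.190 per nucleus (95% exact Poisson interval 0.160 to 0.224), and the other gated nuclei 120, or 0.0119 per nucleus (0.0099 to 0.0143). Its SST fold was 9.13, with a span of 7.02 to 11.8 when both sums take the ends of their intervals. All 10 libraries had a fold above 1. The size was uneven, with 3.98 in library set 1 and 15.1 in library set 2, and 1 SST nucleus held 42 of the 142 UMIs. Without that nucleus the fold was 6.58, below the 6.99 of GRE83 without its own top nucleus. Leaving out the 1% of nuclei with most viral UMIs gave 3.89, against 5.32 for GRE83 and 4.77 for GRE91. With a pseudocount of 0.001 the fold of GRE163 was 14.8 and above both. With 0.1 it was 2.59, below GRE83 at 3.48 and GRE91 at 3.66. The rank of GRE163 thus depended on the setting. Barcodes 1 and 3 gave 68 and 74 SST UMIs and folds of 6.99 and 6.44, whereas barcode 2, with 21 UMIs in all kept nuclei, gave none in SST nuclei and a fold of 0.953. PV nuclei stood at 0.0343, excitatory nuclei at 0.0168 and VIP nuclei at 0.00252 UMIs per nucleus.

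GRE83 had similar SST folds in both library sets. It lies on chromosome 6 from 9842484 to 9842784, with Nxph1, which encodes a neurexin ligand found in interneurons, as the nearest coding gene at 894053 bases. There were 290 UMIs in SST nuclei, 0.389 per nucleus (0.345 to 0.436), against 0.0404 per nucleus (0.0365 to 0.0445) in the other gated nuclei. The SST fold was 7.91 (span 6.52 to 9.59), with 8.26 and 7.44 in the library sets and 5.97, 4.62 and 6.77 for the 3 barcodes. Over single libraries it ran from 1.56 to 21.7. Activity was not limited to SST nuclei, since PV nuclei held 0.263 UMIs per nucleus (0.217 to 0.316), VIP nuclei 0.0705 and excitatory nuclei 0.0283. Its chromatin reads were 5 and 21 in SST, 0 and 2 in PV and 0 and 0 in VIP.

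GRE91 lies in an intron of Spock1, a proteoglycan gene, on chromosome 13 from 57459655 to 57460086. It gave 444 UMIs in SST nuclei, or 0.595 per nucleus (0.541 to 0.653), against 0.0901 (0.0843 to 0.0962) elsewhere. The fold of 6.05 (span 5.19 to 7.03) was 6.61 and 5.33 in the library sets and 4.80, 6.11 and 4.20 for the barcodes, and ran from 2.41 to 14.0 over single libraries. In PV nuclei it gave 0.352 UMIs per nucleus, above VIP at 0.134 and excitatory nuclei at 0.0922. The chromatin at this GRE had 15 and 15 SST reads, 3 and 0 PV reads and no VIP reads.

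GRE65, GRE4 and GRE24 followed, with SST folds of 4.41, 4.28 and 4.25, which lie within each other's spans. GRE65 (22 and 36 SST reads) had 0.288 UMIs per SST nucleus and 0.185 per PV nucleus, and its folds were 3.64 and 5.29 in the library sets. Its barcode 1 gave no SST UMI among 39 in all kept nuclei. GRE4, with 7 and 11 SST reads and none in PV or VIP, gave 0.503 UMIs per SST nucleus, 0.300 per PV nucleus and 0.139 per excitatory nucleus. The barcodes of GRE4 were uneven, with SST folds of 6.26, 1.91 and 2.62. GRE24 overlaps an exon of Plekha3, and its level was 0.197 in SST and 0.151 in PV nuclei. Its barcodes were uneven too, with SST folds of 6.01, 2.59 and 1.49.

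The next members were GRE64, GRE146 and GRE48, with SST folds of 4.04, 4.02 and 3.92. GRE146, in an intron of Gucd1 with 12 and 19 SST reads, had 5780 UMIs, and its folds were alike over the library sets (3.87 and 4.17) and the barcodes (3.10, 3.75 and 4.13). GRE48, over an exon of Zc2hc1b with 26 and 10 SST reads, was even over its barcodes (3.46, 2.80 and 3.14) and less so over the library sets (2.78 and 5.76). GRE64, with 6 and 10 SST reads, was uneven, at 6.46 and 1.73 in the library sets and 1.16, 1.70 and 5.63 for the barcodes.

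Folds between 2.5 and 3.7 were held by GRE171 (3.52), GRE262, GRE218 (3.26), GRE168 (3.17), GRE170 (3.15), GRE219 (3.12), GRE79, GRE1 (2.96), GRE271 (2.96), GRE158 (2.91), GRE56, GRE263 and GRE126. GRE170 had 6186 UMIs, 19 and 12 SST reads and a fold above 1 in all 10 libraries. GRE168 had the highest VIP fold of the members with at least 300 UMIs, 1.91, below its SST fold. GRE219, over an exon of the corepressor gene Rcor3, had 1.58 in library set 1 and 5.22 in library set 2. GRE158, with 8740 UMIs, had a PV fold of 3.24 above its SST fold, and GRE126 had 2.72 in PV against 2.59 in SST.

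Lower folds at high totals were found for GRE183 (2.28 with 5549 UMIs), GRE113 (2.27 with 1390), GRE95 (2.18 with 2059), GRE266 (2.03 with 1370), GRE268 (1.97 with 8644) and GRE199 (1.67 with 5510). GRE266 lies in an intron of Tcf7l2, a Wnt pathway factor, and its excitatory fold was 1.89. GRE268, at 1.08 and 3.31 in the library sets, had an excitatory fold of 1.89 as well. GRE199, over an exon of the phospholipase gene Plcb2, had 11 and 39 SST reads, and its fold differed between the library sets, at 2.18 and 0.905. These members gave many UMIs in SST nuclei, 262 at GRE183 and 376 at GRE268, yet each was below the library's own SST bias, with ratios of 0.710 (0.620 to 0.811) at GRE183, 0.600 (0.537 to 0.669) at GRE268 and 0.514 (0.441 to 0.595) at GRE199.

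GRE161, with 464 UMIs and a fold of 2.48, had 3.46 and 0.822 in the library sets. The remaining 15 members had under 300 UMIs. Of these, GRE263 (25 SST UMIs), GRE100 (17), GRE120 (17), GRE217 (18) and GRE10 (10) had intervals of the fold above 1, but 1 nucleus held 15 of the 17 SST UMIs of GRE100, and without it the fold of 2.31 became 0.895. GRE267, GRE222, GRE172, GRE282, GRE45, GRE162, GRE265, GRE177, GRE258 and GRE60 had between 0 and 11 SST UMIs each and intervals that included 1.

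Among the 31 members with at least 300 UMIs, SST was the gated type with the highest fold in 25, and the PV fold, computed in the same way against all other gated types, was above 1 in 29. The VIP fold was above 1 in 12, the excitatory fold in 22, the astrocyte fold in 1 and the vascular fold in 0. For comparison, 155 of the other 241 GREs had at least 300 UMIs, and SST was the highest type in 93 and the PV fold above 1 in 141 of them.

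Of the 6 members with the most SST chromatin reads, only GRE163 and GRE262 reached 300 UMIs. GRE262, first by SST reads, had 339 UMIs, 43 of them in SST nuclei, and a fold of 3.28 (span 2.26 to 4.68). Almost all of its signal came from 1 barcode, with 325, 6 and 8 UMIs for the 3 barcodes, and 0.0572 UMIs per PV nucleus equalled the 0.0576 per SST nucleus within counting error. GRE267 had 199 UMIs, 11 of them in SST nuclei, with a fold of 1.43 (0.908 to 2.32). It was 0.544 and 3.44 in the library sets, and 0.713 without library 2-2. GRE265 had 52 UMIs, GRE258 had 94 and GRE222 had 210, with folds of 1.19, 0.914 and 1.39, and the spans of all 3 included 1. Set against all other GREs in the same nuclei, the intervals of the ratio were 0.127 to 2.31 for GRE265, 0.0243 to 0.803 for GRE258 and 0.270 to 1.26 for GRE222. The interval of GRE258 was thus below 1, but it rests on 2 SST UMIs.

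GRE222, at the promoter of Sst, was open in SST chromatin and gave few reporter UMIs. By the paper, the number of cells with a barcode correlated highly with the barcode's abundance in the virus. That abundance was not analysed here, so the low total does not separate a weak element from a rare one. In the nuclei the Sst transcript stood at 167 UMIs per 10000 in the SST nuclei, which it defines, and at 0.101 in the VIP nuclei. The GRE gave 9 UMIs in SST nuclei, 0.0121 per nucleus (0.00552 to 0.0229), and 59 in the other gated nuclei, 0.00587 per nucleus (0.00447 to 0.00757). All 9 came from barcode 2, which held 182 of the 210 UMIs in kept nuclei.

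At the other end of the activity range, the members with at least 300 UMIs and the lowest SST folds were GRE119, GRE220 and GRE173. GRE119, which overlaps an exon of the BMP receptor gene Bmpr1b, had a fold of 1.11 (0.714 to 1.76) with 15 SST UMIs. GRE173, whose nearest coding gene is Tshz3, had 1.57 (1.12 to 2.20), and 0.105 UMIs per PV nucleus against 0.0617 per SST nucleus.

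GRE220, in an intron of Zcchc4, had the largest fold of any other type among these members, 6.43 in PV nuclei. It gave 50 UMIs in PV nuclei, 0.114 per nucleus (0.0849 to 0.151), and 15 in SST nuclei, 0.0201 per nucleus (0.0113 to 0.0332). The SST fold of 1.30 became 0.682 without library 1-5. The GRE is named for this fold, so the order is a description. The PV UMIs came from 11 nuclei, 1 of which held 18, and the PV level without it was 0.0734. PV stood above SST in both library sets, 0.124 against 0.0272 and 0.108 against 0.0117, and in 7 of the 10 libraries, below it in 2. Its chromatin reads were 12 and 13 in SST, 2 and 1 in PV and 0 and 1 in VIP. Nearly all UMIs, 338 of 346, came from barcode 1, with 4 from each of the others, so there is no second barcode to set beside it. The next largest were the PV folds of GRE83, 4.13, and of GRE56, 3.47. GRE56 held 0.368 UMIs per PV nucleus (0.314 to 0.430) and 0.279 per SST nucleus (0.242 to 0.319). Its 3 barcodes were even in total UMIs, at 1058, 1103 and 1050, but not in SST fold, at 2.96, 1.34 and 3.13.

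When each member was set against all other GREs in the same nuclei, so that the general excess of viral UMIs in SST nuclei cancels, 11 of the 46 had a ratio with an interval above 1, 12 had one below 1 and 23 had one that included 1. Among the other 241 GREs the numbers were 39, 71 and 131. The highest ratios of the members were 4.81 for GRE163 (3.75 to 6.19), 2.91 for GRE83 (2.49 to 3.39) and 2.00 for GRE91 (1.78 to 2.24). GRE126, the most abundant member with 15567 UMIs and 5 and 14 SST reads, had 0.784 (0.730 to 0.841), although its plain SST fold was 2.59. All GREs together stood 3.32 times higher in SST than in the other gated nuclei. That fewer members pass 1 by this ratio than by the plain fold therefore follows from its construction. Its reference is the other GREs of a library chosen on SST signal, and not a vector without a GRE.

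The 3 barcodes of a member, the 2 library sets and the 10 libraries are repeats within 1 sample of 2 animals. All 3 barcodes had an SST fold above 1 in 28 of the 46 members and in 153 of all 287 GREs. A barcode without UMIs in the gated nuclei gives a fold of 1 and cannot count as above it. By the paper, some barcodes were not found in the packaged virus, and the lowest total of a member barcode in kept nuclei was 0. This count therefore does not separate a missing barcode from one that differs. In both library sets the fold was above 1 in 35 members and 211 of all 287 GREs, and in all 10 libraries in 5 members and 35 of all GREs. Spearman's rho between library sets was 0.378 over the 46 members, and between pairs of barcodes it was 0.226 to 0.561. A single nucleus could weigh heavily, as at GRE79, where 1 SST nucleus held 51 of 98 SST UMIs and the fold of 3.11 became 1.61 without it.

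Viral barcodes also appeared where no nucleus was counted. The 15013 cell barcodes with 200 UMIs or fewer held 1.76 member UMIs each, or 15.5 per 1000 cellular UMIs against 3.66 in the kept nuclei. The part of viral RNA outside nuclei in the counts of each type was not tested. Vascular nuclei, with a higher median of cellular UMIs than SST nuclei (1091 against 855), held 0.742 member UMIs per nucleus against 9.53. GRE265, GRE258 and GRE60 had 3, 2 and 0 UMIs in all SST nuclei, and the exact Poisson upper limit for GRE60 was 0.00494 UMIs per nucleus.

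The levels of the genes nearest to the members were read from the same nuclei. Leaving out Sst, 31 of the 45 nearest coding genes had at least 100 UMIs in the gated nuclei. Per 10000 cellular UMIs, 14 of the 31 stood higher in SST than in the other gated nuclei and 4 were more than 2 times higher, with a median ratio of 0.845. These shares, 45.2% and 12.9%, compare with 45.0% and 9.29% of the 140 genes nearest to the other GREs and 46.3% and 3.36% of all 10741 genes with as many UMIs, and no test was made. Grin3a, an NMDA receptor subunit gene near GRE65, stood at 10.7 in SST nuclei and 0.293 elsewhere. Nxph1, near GRE83, stood at 5.01 in SST, 3.60 in PV and 0.168 in VIP nuclei. It also stood at 3.51 in NPY nuclei and 5.16 in OPCs, where GRE83 gave 0.0818 and 0.00459 UMIs per nucleus. The scales of gene and GRE differ, and OPCs held 4.58 GRE UMIs per nucleus against 47.5 in SST nuclei. Their orders over the types were therefore not compared. By contrast Spock1, around GRE91, stood at 0.336 in SST and 0.499 elsewhere, Kcnj2, an inward rectifier gene nearest to GRE262, at 0.215 and 0.483, and Btbd3, around GRE267, at 0.981 and 0.771. Nearness does not show which gene a GRE acts on.

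Short motifs were counted on both strands of the central 300 bases of each GRE and of 323354 reference regions. CAGCTG, an E-box, occurred in 19 of 46 members (41.3%), 34.0% of the other GREs and 26.3% of reference regions. CAGATG, the NeuroD-type E-box, occurred in 17 members (37.0%), 42.7% of the others and 30.7% of regions. The AP-1 site TGANTCA was in 7 members (15.2%), 23.7% of the others and 13.0% of regions. TAATTA, the core bound by many homeodomain proteins such as Lhx6 of SST and PV interneurons, was in 2 members (4.35%), 13.7% of the others and 4.91% of regions. AACAAT of Sox proteins was in 2 members, TATTTTTA of MEF2 in 3, GCGTGG of EGR proteins in 4, and TGACGTCA in none of these windows, since the match in GRE222 lies outside its central part. The corresponding shares of reference regions were 10.7%, 2.49%, 8.68% and 0.479%. The part of the higher GC content of the members in these shares was not tested. GRE91 held none of these motifs in its window and GRE83 held both E-boxes. The rest of each cloned element, with its flanking sequence, was not searched. A match is a description of letters and not a bound site.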

How the data were processed

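ATAC-Seq was analysed in 6 samples and PESCA in 1 sample of 10 libraries. Per the submitters' processing notes, reads were trimmed with Trimmomatic 0.33 and aligned with Subread 1.4.6-p3 to mm10, which is GRCm38. The authors deposited raw read counts on 323369 reference regions, UMI counts per nucleus and viral barcode, peaks with the −log10 q-value of each, and a phyloP score per region. A table of 0 and 1 marks, deposited by the authors, was used only as a check, and it matched the peaks in 269 of 276 pairs of member and sample. The authors' fold columns hold the ratio of SST to PV and VIP signal and that of SST to other nuclei, and were not used. GRE coordinates are counted from 1, and the peak table adds 150 bases on each side.

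Members were GREs with at least 5 reads in each SST replicate. The members, marker gates, motifs and lists were chosen with earlier results of these data known. PV minus VIP was tested with edgeR 4.0.16 (filterByExpr, TMM, quasi-likelihood, Benjamini-Hochberg) in R 4.3.3 over all 6 samples and checked on simulated data. The simulation placed 8-fold changes in 200 regions with many reads and recovered 99% of them. It does not cover regions with as few reads as most members had. Each ATAC-Seq replicate was 1 animal by the study's methods. The labels do not pair the replicate numbers. Of the paired deviations between same-numbered samples, the correlations were -0.036, 0.0246 and 0.0303.

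The minimum of 200 UMIs counts a pooled gene column named Vector, without which 31896 nuclei remain. SST nuclei have at least 3 Sst UMIs, under 2 Vip UMIs and no Slc17a7. PV nuclei have Pvalb and Gad1 or Gad2, VIP nuclei at least 2 Vip, NPY nuclei at least 2 Npy, excitatory nuclei Slc17a7 without inhibitory markers, and glial and vascular nuclei at least 3 UMIs over at least 2 markers. The pseudocount was 0.01. Counting intervals of 95% are exact. Python 3.11.15 with SciPy 1.17.1 was used. Named are the 6 members with most SST reads, of those with at least 300 UMIs the 6 highest and 3 lowest SST folds and the 3 largest folds of another type, the 3 with most PV and VIP reads, called members and those at the threshold. The other members and the motif list were named after values were seen. Alternatives changed the normalization, filter, tool, samples, gates, denominator, pseudocount, libraries and barcodes.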

Additional observations from a re-analysis of the deposited data

Results flagged for a closer look

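Of 1164 viral barcode columns, 861 belong to the library and 303 to no GRE. In the kept nuclei these 303 held 5791 UMIs, 1.14% of all viral barcode UMIs, and 297 of them had at least 1. This signal lies outside the measurement used above. Per barcode the median was 9 UMIs and the highest values were 550 and 332, against a median of 317.5 for the 138 barcodes of the members, which ranged from 0 to 7881. Summed, these columns were 4.03 times higher in SST than in other gated nuclei, near the 3.32 of all GREs. By the paper, the barcode design yielded 1164 sequences, the same number as these columns, of which each GRE was paired with 3. How UMIs came to the 303 columns of no GRE, and their part in the counts of members with few UMIs, was not tested.

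The nuclei tables also hold a gene column named Vector with 455869 UMIs in the kept nuclei, a viral signal that is not split by barcode and enters no comparison. It counts towards the minimum of 200 UMIs, and leaving it out is among the alternatives.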

How the results depend on the processing

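In 26 alternatives the count of members above the median SST fold of all GREs stayed between 23 and 30, and the median of the members was above that of all GREs in 25. The exception was barcode 3 alone, with 1.30 for the members and 1.33 for all GREs. Medians of members and of all GREs moved by more than the SD over libraries with a pseudocount of 0.001 (2.91 and 2.69) or 0.1 (1.49 and 1.30), without the 1% of nuclei with most viral UMIs (1.95 and 1.60), with barcode 1 alone (1.99 and 1.51) or barcode 2 alone (1.60 and 1.36), and without the top SST nucleus of each GRE (1.78 and 1.60), an alternative chosen after seeing the data, as was leaving out the Vector column. The median of the members was 2.82 in library set 2 alone, and that of all GREs 1.78 in library set 1 alone and 2.44 with stricter gates. Leaving out 1 library at a time gave 2.28 to 2.61 for the members and 1.97 to 2.21 for all GREs. Within single libraries the medians ran from 0.932 to 2.22 for the members (SD 0.373) and from 1 to 1.93 for all GREs (SD 0.316). The alternatives reuse the same nuclei, and all GREs include the members, so their agreement is no independent support. Refitted SST folds also shifted in size. They ran from 0.953 to 15.1 for GRE163, 3.48 to 10.4 for GRE83, 3.66 to 7.31 for GRE91 and 1.91 to 6.26 for GRE4. Of 390 refitted folds of the 15 named GREs, 26 fell on the other side of 1. Of these, 22 belonged to GRE119, GRE220, GRE222, GRE258 and GRE267, whose reported intervals include 1, and 4 to GREs with a reported interval above 1: GRE65 with barcode 1 alone (0.893), GRE163 and GRE262 with barcode 2 alone (0.953 and 0.971), which rest on few UMIs, and GRE173 with UMIs scaled to each nucleus's cellular UMIs (0.911). Between PV and VIP, 1 member of 21 tested was called with RLE factors, with DESeq2 and with the replicate block. With PV and VIP samples alone 1 was called of 1 tested, and with no filter 0 of 46. Leaving out 1 sample gave 0 to 2 members and 12980 to 27615 regions, where a lone replicate is assumed to vary like the others. In those fits 53326 to 56308 regions and 21 to 34 members were tested, against 40338 and 21 as reported. Their counts are therefore not directly comparable with the reported ones. DESeq2 called 11614 of the same 40338 regions, against 19824 as reported and 19159 with the replicate block, which is no real pairing. With no filter, 10868 of 310118 regions were called. Beyond the construction of each alternative, the cause was not tested. Members had a median of 3 PV and VIP reads, and 8 had under 100 UMIs. The smallest change detectable at these counts was not tested.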
